A study of Mus musculus with 12 samples.

Results

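The genes described here, 4 of the 50600 in the count files, lie in a pair of loci: Eif3j2 and the pseudogene Gm3650 on chromosome 18, and Cebpe and the transcript Gm43305 on chromosome 14. They were chosen by their counts, which differed between livers that received a Pdx1 guide RNA (gRNA) and livers that received a control gRNA, so every difference of these 4 genes is given as a description, with no test. All 4 are among the 15219 genes that passed the filter on low counts, which for Gm3650 meant at least 10 counts in 5 libraries and for Cebpe in 7.

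Polyadenylated RNA was sequenced from 12 mouse livers, 4 in each of 3 groups. Every animal was of the Rosa26-LSL-dCas9-p300 strain, which carries a Cre-dependent fusion of nuclease-dead Cas9 to the histone acetyltransferase p300 at the Rosa26 locus. Mice of about 8 weeks received adeno-associated virus (AAV.Cbh.gRNA) with the Pdx1 gRNA, the same virus with a control gRNA, or PBS without virus, and livers were taken 2 weeks later. The virus dose was 1e+12 viral genomes per mouse in both virus groups, and the PBS mice carried the same transgene. The labels used here name no source of Cre and do not say that each library is a separate animal, so p-values measure the spread between libraries.

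eIF3 is the multi-subunit complex that helps the small ribosomal subunit bind mRNA and scan for a start codon. Its J subunit is loosely bound and acts in start-site recognition and in the recycling of ribosomes. In the mouse it is encoded by Eif3j1 on chromosome 2 and by a second gene, Eif3j2. Cebpe encodes C/EBP epsilon, a transcription factor of myeloid cells that is needed for the last steps of neutrophil and eosinophil differentiation and for the genes of secondary granules. Hepatocytes depend on other members of the C/EBP family, mainly C/EBP alpha and beta.

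Libraries held 13531769 to 18063529 counts after Pdx1 gRNA, 16963079 to 22008046 after control gRNA and 11824767 to 17870498 after PBS. Pdx1 had 26, 32, 54 and 256 counts in the Pdx1 gRNA libraries, against 0, 0, 0 and 2 in the control gRNA libraries and 0 in every PBS library, so the target of the gRNA followed the labels. In Pdx1 gRNA against control gRNA, however, edgeR called none of the 15219 genes at an adjusted p under 0.05. Pdx1 had the smallest value there (edgeR quasi-likelihood test, adjusted p = 0.444). The lack of a call in that contrast therefore tells nothing about a single gene or list. All 10 hepatocyte markers were detected in every group. One difference between libraries was not in the labels used here, which give no sex. The Y-linked gene Ddx3y had 1024 and 828 counts in PBS libraries 2 and 3 and at most 3 counts in each of the other 10 libraries. Xist showed the reverse, with 33 and 43 counts against 10696 to 24067. This is the pattern of male livers in PBS libraries 2 and 3 and of female livers in the other 10. No virus library had the male pattern, so sex and virus cannot be fully told apart in contrasts with all PBS libraries. Some results that rest on PBS are therefore given also without those libraries. Without them, 2555 genes were called in both virus groups against PBS, in place of 5339. A gene named as called against PBS with no value for that setting may not be called in it.

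Eif3j2 (ENSMUSG00000043424.10) has 1 exon of 2379 bases on the minus strand of chromosome 18, at 43475418 to 43477796 in GRCm38 (mm10), and is annotated as protein-coding. Gm3650 (ENSMUSG00000097891.1) lies at 43472816 to 43475169 on the plus strand, has 5 exons with 747 bases in all and is annotated as an unprocessed pseudogene. The gap between them is 248 bases, with no annotated gene in it and no shared exon base. Both are close copies of a pair of chromosome 2 genes. Of all 50-base stretches of the Eif3j2 transcript, 90.8% occurred letter for letter in transcripts of Eif3j1, and 77.1% of its 150-base stretches did. Of the 50-base stretches of Gm3650, 92.8% occurred in transcripts of Spg11, the gene of spatacsin, a protein of lysosome and autophagosome turnover, and 78.4% of its 150-base stretches did. In the genome Spg11 is also the neighbour of Eif3j1: the 2 genes lie on opposite strands and overlap by 3079 bases, 1107 of them in exons of both. A read from a shared stretch fits both copies, so counts of Eif3j2 and Gm3650 rest on the stretches that differ and are uncertain as totals.

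Cebpe (ENSMUSG00000052435.6) lies on the minus strand of chromosome 14 at 54710363 to 54712174, with 2 exons and 1238 exon bases. Gm43305 (ENSMUSG00000105703.1) is on the same strand at 54292443 to 54297343, a single exon of 4901 bases annotated as a processed transcript. The genes are neighbours only in a loose sense: 413 kb and 25 annotated genes lie between them, 14 of which were tested. No 50-base stretch of Cebpe occurred in any other transcript. Of the 50-base stretches of Gm43305, 16.5% occurred in transcripts of 18 other genes, most of them in Gm42031, with 10.9%.

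RefSeq (GRCm38.p6) gives a promoter window for Gm43305 alone among the 4 genes, 300 bases around the start that RefSeq annotates, at chr14:54297439-54297738 on the minus strand. RefSeq sets that start upstream of the one in the count files, so the window ends before the counted gene begins. It is shown because Gm43305 had the widest range of counts of the 4 genes and the window shares sequence with other loci. The capitals mark TATAAA, found once on this strand, 27 bases before the RefSeq start.
Gm43305: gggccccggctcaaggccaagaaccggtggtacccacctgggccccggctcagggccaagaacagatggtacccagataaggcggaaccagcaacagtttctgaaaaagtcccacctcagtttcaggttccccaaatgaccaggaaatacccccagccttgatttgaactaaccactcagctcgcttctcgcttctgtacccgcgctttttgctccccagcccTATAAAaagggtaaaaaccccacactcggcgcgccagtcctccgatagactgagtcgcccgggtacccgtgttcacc
TATAAA is held on either strand by 13.6% of the 32851 promoter windows of this length and on the given strand by 8.3%. Stretches of 30 bases of the window were shared with the windows of 4 other genes, Gm42031 on chromosome 8, Gm40843 on chromosome 12, Gm33887 on chromosome 1 and Gm40814 on chromosome 11. Gm42031 shared 169 such stretches and Gm40843 shared 92, whereas Gm33887 and Gm40814 shared 4 each.

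Eif3j2 was low in every Pdx1 gRNA liver, high in every control gRNA liver and divided among PBS livers. It had 38, 28, 20 and 40 counts after Pdx1 gRNA, 516, 397, 456 and 298 after control gRNA, and 422, 12, 10 and 13 after PBS. The virus groups did not overlap, and of the PBS libraries the first was above all 4 control gRNA libraries in CPM (counts scaled to library size, with TMM factors) while the other 3 were below all 4 Pdx1 gRNA libraries. Means were 1.89 ± 0.258 CPM after Pdx1 gRNA, 18.8 ± 1.74 with control gRNA and 7.1 ± 12.1 with PBS (SD, n = 4 each). Summed over libraries and scaled, the Pdx1 gRNA group held 0.101 times the Eif3j2 counts of the control gRNA group, with a 95% counting interval of 0.0838 to 0.122 that covers counting error only. The fitted log2 difference between the virus groups was -3.31 ± 0.939 (SE).

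Gm3650, the pseudogene beside it, divided the libraries in the same way at a lower level. It had 3, 0, 0 and 0 counts after Pdx1 gRNA, 44, 42, 64 and 39 after control gRNA, and 72, 0, 0 and 0 after PBS. PBS library 1 was again the highest of the 12, and the 5 libraries with high Eif3j2 each had at least 39 counts of Gm3650. A count of 0 allows up to 3 counts in a library, or 0.152 to 0.227 CPM in the 3 Pdx1 gRNA libraries at 0 and 0.215 to 0.307 CPM in the 3 PBS libraries at 0. The ratio of the Pdx1 gRNA group to the control gRNA group was 0.0213 (95% counting interval 0.00435 to 0.0631), on 3 counts in 1 library. Across the 12 libraries the log2 CPM of Eif3j2 and Gm3650 had a Pearson correlation of 0.96, a description that rests on the 5 high and 7 low libraries. Of all genes tested, 3.17% were lower in every Pdx1 gRNA library than in every control gRNA library. Eif3j2 and Gm3650 are among them, as the way they were chosen makes likely, so nothing is read from that.

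**Figure D1:**
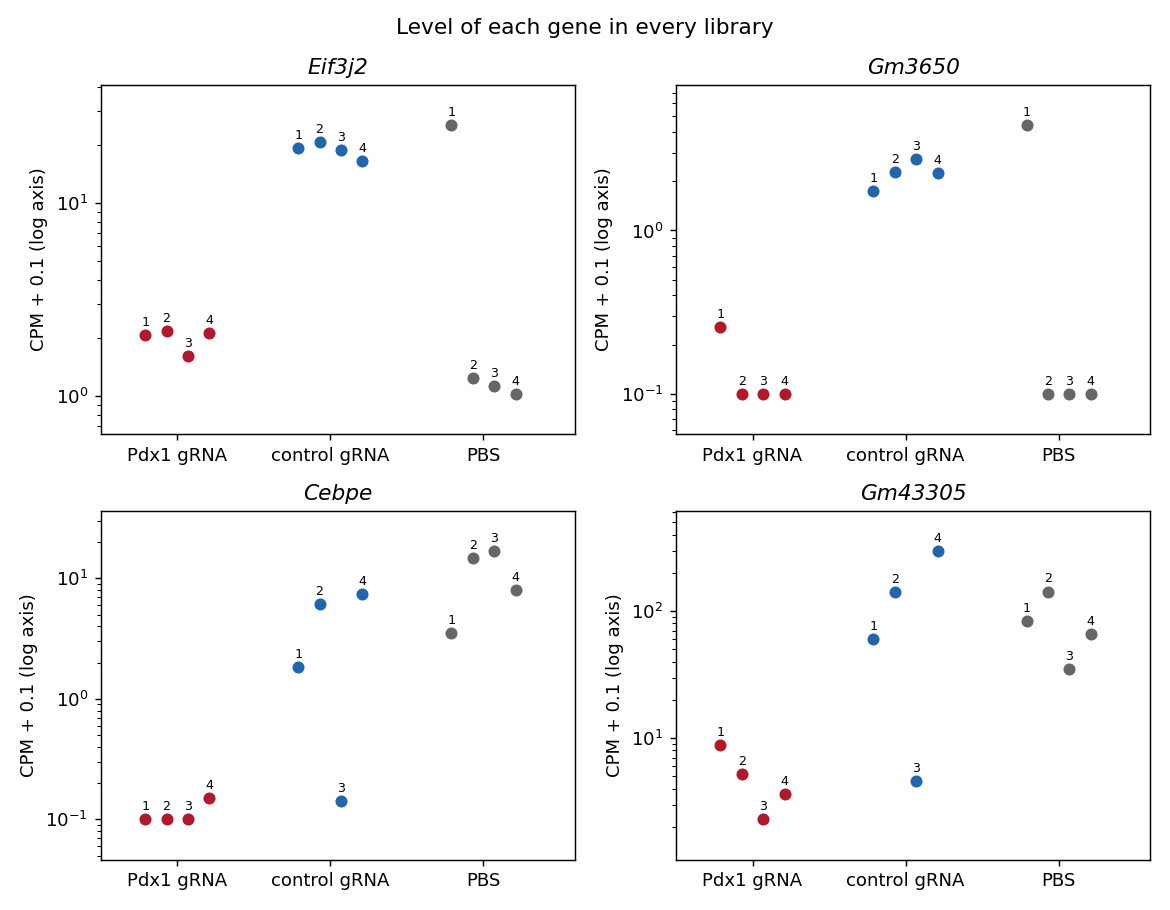
CPM plus 0.1 (log axis) of each gene in all 12 libraries, with the replicate number above each point and groups from left to right as Pdx1 gRNA, control gRNA and PBS. Eif3j2 and Gm3650 are high in the 4 control gRNA libraries and in PBS library 1, while Cebpe and Gm43305 are low in the 4 Pdx1 gRNA libraries and in control gRNA library 3.

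The chromosome 2 genes did not follow their copies. Eif3j1 had 2269, 1584, 1608 and 2514 counts after Pdx1 gRNA, 2560, 2254, 2290 and 1666 after control gRNA, and 1438, 723, 613 and 853 after PBS. Its level was 121 ± 5.01 CPM after Pdx1 gRNA, 100 ± 11.8 with control gRNA and 69.7 ± 11.5 with PBS (SD, n = 4 each). Every virus library was above every PBS library. Eif3j1 rose in both virus groups together against PBS by 0.66 ± 0.123 on the log2 scale (SE; edgeR quasi-likelihood test, adjusted p = 0.00175), a call that each alternative kept. Between Pdx1 gRNA and control gRNA its difference was 0.27 ± 0.138 (edgeR adjusted p = 0.816).

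Set against Eif3j1 in the same library, Eif3j2 fell into separate ranges. Eif3j2 counts were 1.68, 1.77, 1.24 and 1.59% of the Eif3j1 counts after Pdx1 gRNA, 20.2, 17.6, 19.9 and 17.9% after control gRNA, and 29.3, 1.66, 1.63 and 1.52% after PBS. No library lay between 1.77% and 17.6%. The 95% counting intervals of the 7 libraries below that gap all held the range from 1.18 to 1.93%, so these 7 libraries could not be told apart by counting error. Whether the few Eif3j2 counts there came from chromosome 18 or from Eif3j1 reads with a mismatch was not tested. Per kilobase of exon, Eif3j2 stood at 0.796 ± 0.109 CPM after Pdx1 gRNA, 7.92 ± 0.731 with control gRNA and 2.98 ± 5.1 with PBS. These values divide by all 2379 exon bases, while reads that map to both copies were not counted, so they can be too low.

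Gm3650 and Spg11 gave the same division. Gm3650 counts were 0.977% of Spg11 counts in Pdx1 gRNA library 1 and 0% in the other 3, between 13.6 and 21.6% after control gRNA, 31.3% in PBS library 1 and 0% in the other 3 PBS libraries. Spg11 itself ran the other way. It had 307, 242, 217 and 449 counts after Pdx1 gRNA, 323, 194, 298 and 248 after control gRNA, and 230, 340, 334 and 415 after PBS. Its level was 18.2 ± 3.16 CPM after Pdx1 gRNA, 12.1 ± 1.49 with control gRNA and 27.5 ± 9.33 with PBS (SD, n = 4 each), and PBS library 1 was the lowest of the PBS group, at 13.8 CPM. Each Pdx1 gRNA library was above each control gRNA library in Spg11 (15.9 CPM at the least, against 13.7 CPM at the most), as it was in 3.48% of the genes tested. Spg11 fell in the virus groups against PBS by 0.89 on the log2 scale (edgeR adjusted p = 0.00538), but without PBS libraries 2 and 3 the difference was -0.57 (edgeR adjusted p = 0.135). The log2 CPM of Eif3j2 and Spg11 had a Pearson correlation of -0.86 over the 12 libraries.

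**Figure D2:**
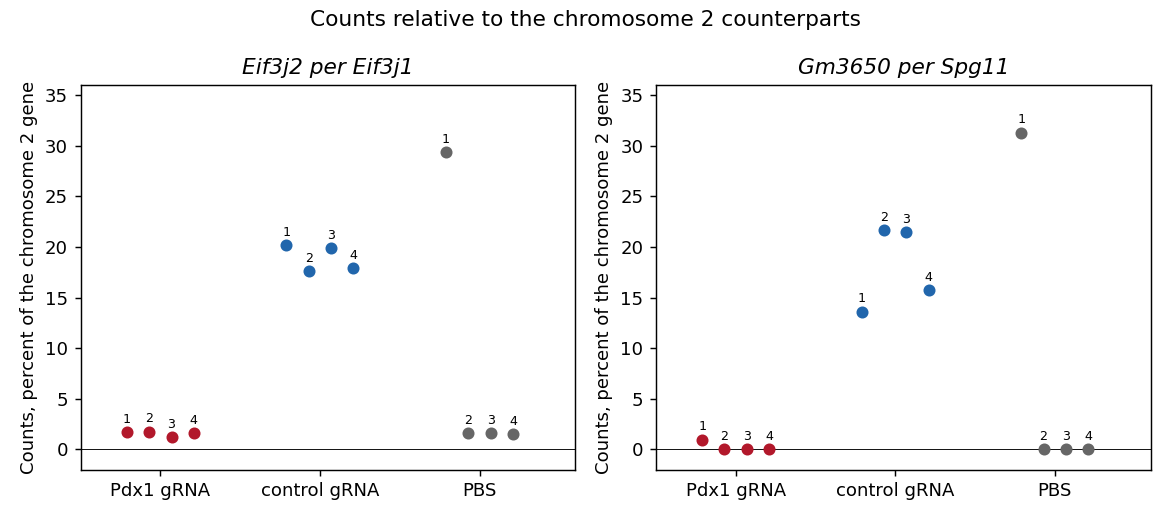
Counts of Eif3j2 as a percentage of Eif3j1 counts (left) and of Gm3650 as a percentage of Spg11 counts (right) in each library, in the order Pdx1 gRNA, control gRNA and PBS, with replicate numbers above the points. Control gRNA libraries and PBS library 1 stand between 13.6 and 31.3%, and the other 7 libraries stand below 2%.

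Cebpe was nearly absent after Pdx1 gRNA. It had 0, 0, 0 and 1 counts in the Pdx1 gRNA libraries, 47, 115, 1 and 133 in the control gRNA libraries, and 57, 154, 164 and 111 in the PBS libraries. Control gRNA library 3 lay with the Pdx1 gRNA libraries, so the virus groups overlapped, while every PBS library was above every Pdx1 gRNA library. Means were 0.0127 ± 0.0254 CPM after Pdx1 gRNA, 3.79 ± 3.46 with control gRNA and 10.7 ± 6.15 with PBS (SD, n = 4 each). The 3 libraries at 0 allow up to 0.155 to 0.227 CPM. On the single count, the Pdx1 gRNA group held 0.00453 times the Cebpe counts of the control gRNA group (95% counting interval 0.000114 to 0.0254), and the fitted log2 difference was -7.39 ± 1.51 (SE).

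Gm43305 was the most abundant of the 4 genes and had the widest range of counts. It had 170, 69, 29 and 69 counts after Pdx1 gRNA, 1621, 2687, 109 and 5372 after control gRNA, and 1384, 1500, 342 and 922 after PBS. Control gRNA library 3 was again within the range of the Pdx1 gRNA libraries, and control gRNA library 4 was the highest of all 12. Means were 4.9 ± 2.86 CPM after Pdx1 gRNA, 126 ± 128 with control gRNA and 81.6 ± 45.2 with PBS (SD, n = 4 each). The Pdx1 gRNA group held 0.0461 times the counts of the control gRNA group (95% counting interval 0.0413 to 0.0514), and the fitted log2 difference was -4.67 ± 1.02 (SE). Unlike Cebpe, Gm43305 was detected in every library.

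The genes of this pair were not in a fixed ratio. Cebpe counts were 0, 0, 0 and 1.45% of Gm43305 counts after Pdx1 gRNA, 2.9, 4.28, 0.917 and 2.48% after control gRNA, and 4.12, 10.3, 48.0 and 12.0% after PBS. PBS library 3 stood furthest out, with 164 counts of Cebpe on 342 of Gm43305, and its interval of 39.6 to 57.9% did not touch that of any other library. Over the 12 libraries the log2 CPM of Cebpe and Gm43305 had a Pearson correlation of 0.9. Across the loci, Eif3j2 had a correlation of 0.11 with Cebpe and 0.34 with Gm43305, and the libraries that stand out differ: PBS library 1 was alone among PBS in Eif3j2 and Gm3650, and control gRNA library 3 alone among control gRNA in Cebpe and Gm43305.

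**Figure D3:**
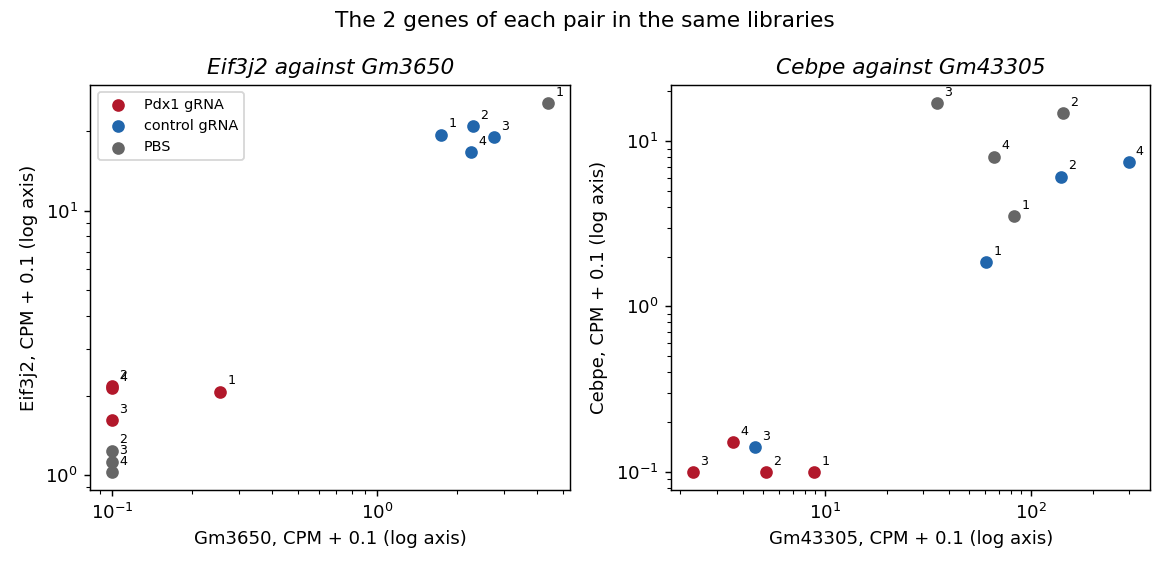
CPM plus 0.1 of Eif3j2 against Gm3650 (left) and of Cebpe against Gm43305 (right), both axes on a log scale, 1 point per library with its replicate number, coloured by Pdx1 gRNA, control gRNA or PBS. The chromosome 18 genes split into 5 high and 7 low libraries, and the chromosome 14 genes place control gRNA library 3 among the 4 Pdx1 gRNA libraries.

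Setting the mean of both virus groups against PBS brings in the PBS libraries, which had no part in the choice of genes, but the same virus libraries by which the genes were chosen, so these differences are descriptions too. Of all genes tested, 35.1% were called in this contrast at an adjusted p under 0.05, 17.1% higher and 18.0% lower, and 10.3% were higher and 6.96% lower in every virus library than in every PBS library. All 4 genes overlapped between virus and PBS. Cebpe averaged 1.9 ± 3.04 CPM in the 8 virus libraries and 10.7 ± 6.15 CPM in the 4 PBS libraries (SD), with a fitted log2 difference of -5.2 ± 0.93 (SE). That value averages the virus groups on the log scale, and most of it lay in the Pdx1 gRNA group: the difference from PBS was -8.89 ± 1.47 for Pdx1 gRNA and -1.5 ± 0.819 for control gRNA. Without PBS libraries 2 and 3, which had the highest Cebpe levels, the difference in mean was -3.78 CPM, in place of -8.8 CPM.

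The other 3 genes lay nearer to PBS. Gm43305 differed by -1.71 ± 0.731 on the log2 scale, Eif3j2 by -0.28 ± 0.739 and Gm3650 by -1.8 ± 1.13 (SE). PBS library 1 decided the values of the chromosome 18 genes: without it the virus groups stood above PBS by 2.53 in Eif3j2 and by 5.52 in Gm3650. On the linear scale and with all libraries, the virus libraries averaged 3.27 CPM above PBS in Eif3j2 and 0.0206 CPM above it in Gm3650, opposite in sign to the fitted log2 differences, which weigh each virus group's log level equally.

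Taken singly, the virus groups share the PBS libraries in their comparisons with PBS. Pdx1 gRNA minus PBS was -1.93 ± 0.916 for Eif3j2, -4.49 ± 1.62 for Gm3650 and -4.05 ± 0.996 for Gm43305 on the log2 scale (SE). Control gRNA minus PBS was 1.37 ± 0.852 for Eif3j2, 0.89 ± 1.07 for Gm3650 and 0.62 ± 0.866 for Gm43305. The chromosome 18 values turned on PBS library 1: without it Pdx1 gRNA minus PBS was 0.88 for Eif3j2 and 2.84 for Gm3650, and control gRNA minus PBS was 4.19 and 8.21. Gm43305 after control gRNA turned on library 4, without which the difference was -0.26. Cebpe and Gm43305 were lower in every Pdx1 gRNA library than in every PBS library, as were 8.74% of the genes tested.

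The genes around each pair did not share its pattern as a group. Within 500 kb of the chromosome 18 pair 12 genes are annotated and 2 passed the filter, Dpysl3, which encodes a cytoskeletal protein best known from neurons, and Spink5, which encodes a protease inhibitor of epithelia. Dpysl3, 34.5 kb from Gm3650, averaged 1.8 ± 0.754 CPM after Pdx1 gRNA and 2.44 ± 0.917 after control gRNA (SD, n = 4 each), a log2 difference of -0.43 ± 0.357 (edgeR adjusted p = 0.877). Against PBS the virus groups differed in Dpysl3 by -0.61 ± 0.304 (edgeR adjusted p = 0.137). Neither Dpysl3 nor Spink5 was called in any of the 4 comparisons.

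Within 500 kb of the chromosome 14 pair 143 genes are annotated and 28 were tested. None of the 28 was called when Pdx1 gRNA was set against control gRNA, beside 0.0% of all genes tested by edgeR (918 genes had an unadjusted p under 0.05, and DESeq2 called 14 genes). One of the 28 had an unadjusted p under 0.05, Psmb5, which encodes a catalytic subunit of the proteasome, at -0.63 ± 0.205 on the log2 scale (edgeR adjusted p = 0.809). The log2 differences of the 28 genes ran from -0.81 to 0.24, against -7.39 for Cebpe and -4.67 for Gm43305. Slc7a8, an amino acid transporter gene 10 kb from Cebpe, differed by -0.8 ± 0.415 and did not pass.

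Against PBS these neighbours were called about as often as other genes: 35.7% in the virus groups, 32.1% after control gRNA and 25.0% after Pdx1 gRNA, beside 35.1%, 32.1% and 22.1% of all genes. In the virus groups 8 were higher and 2 lower. The higher ones included Trdc, the constant region of the T cell receptor delta chain (5.32 ± 1.18, edgeR adjusted p = 0.00478), Ajuba, a LIM-domain scaffold (1.59 ± 0.393, edgeR adjusted p = 0.00808), Ngdn, a binding partner of eIF4E (0.89 ± 0.165, edgeR adjusted p = 0.00159), and Prmt5, an arginine methyltransferase (0.79 ± 0.174, edgeR adjusted p = 0.00451). Mrpl52, Abhd4, Mmp14 and 1700123O20Rik rose by 0.44 to 0.76. Without PBS libraries 2 and 3, which leaves 10 libraries and other genes past the filter, 2 neighbours were called in the virus groups in place of 10. Without PBS library 1, 14 were called after control gRNA and 11 after Pdx1 gRNA, in place of 9 and 7.

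The neighbours that fell were Ppp1r3e and Thtpa. Ppp1r3e, a glycogen-targeting subunit of protein phosphatase 1 that lies 160 kb from Cebpe, had 34, 23, 21 and 23 counts after Pdx1 gRNA, 58, 64, 15 and 78 after control gRNA, and 57, 53, 84 and 109 after PBS. In CPM its lowest library was control gRNA library 3, which was also the lowest of its group for Cebpe and Gm43305. Ppp1r3e fell in the virus groups by 1.62 ± 0.391 on the log2 scale (SE; edgeR adjusted p = 0.00702) and after Pdx1 gRNA by 1.99 ± 0.487 (edgeR adjusted p = 0.0127), where 10.4% of all genes fell. Without PBS libraries 2 and 3 the virus difference was -1.5 (edgeR adjusted p = 0.0636). Thtpa, the gene of thiamine triphosphatase, fell in the virus groups by 0.76 ± 0.204 (edgeR adjusted p = 0.0127), and not when PBS library 2 (-0.6, edgeR adjusted p = 0.0585) or 3 (-0.62, edgeR adjusted p = 0.0563) was left out.

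**Figure D4:**
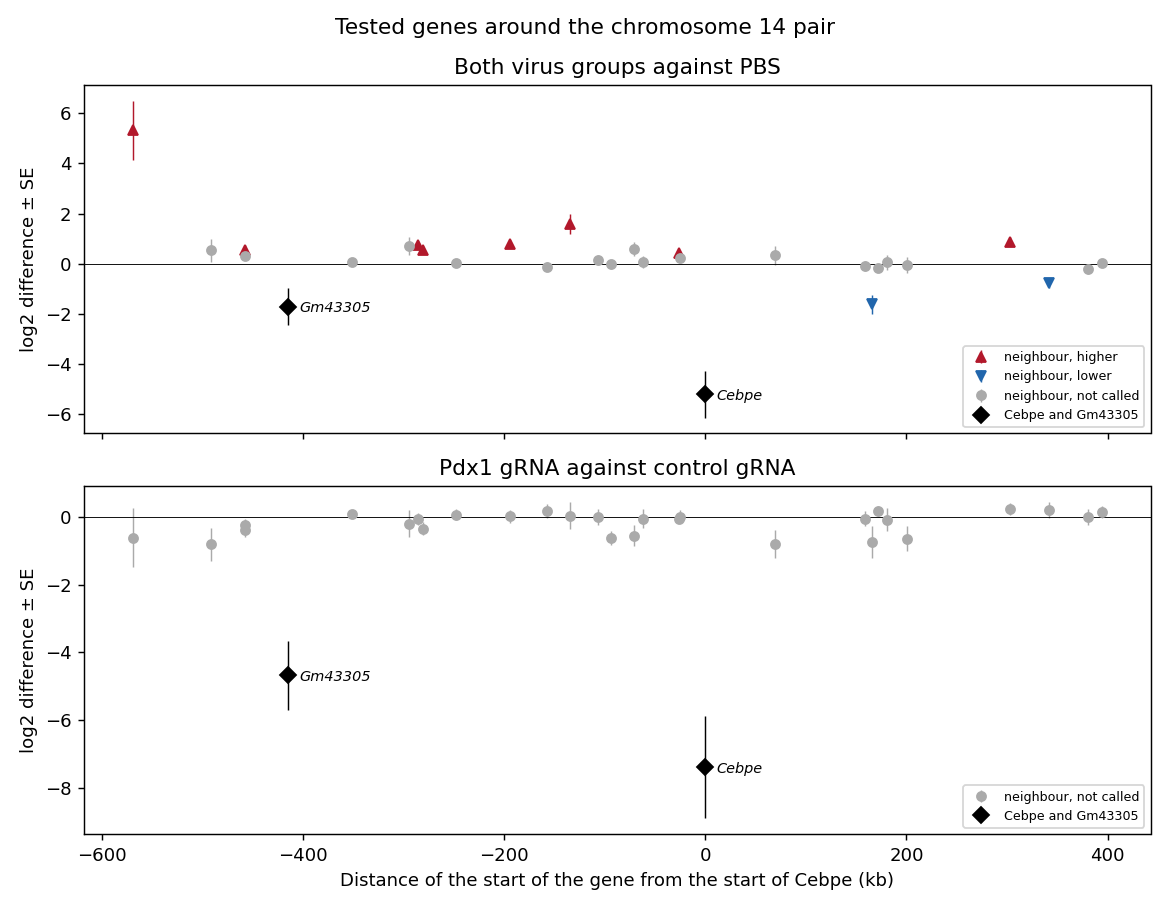
Fitted log2 difference with its SE of the 28 tested genes around the chromosome 14 pair, by the distance of their start from the start of Cebpe in kb, for both virus groups against PBS (upper) and for Pdx1 gRNA against control gRNA (lower). Black diamonds are Cebpe and Gm43305, triangles are neighbours called higher or lower and grey circles are those not called; in the lower panel the neighbours stay between -0.81 and 0.24.

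Genes with a like pattern over the 12 libraries were listed by the Pearson correlation of log2 CPM, as a description with no test. The 5 most like Eif3j2 were Dok3 (0.915), an adaptor of myeloid and B cells, S100a8 (0.911), a calcium-binding protein of neutrophils, Pde4a (0.9), a cyclic AMP phosphodiesterase, Rgl2 (0.895), a Ral exchange factor, and Tcf4 (0.89), a transcription factor gene that also lies on chromosome 18, 25.9 Mb away. Rgl2 also led for Gm3650 (0.899), followed by Gm9776, Slfn4, Zfp512 and Eva1b. S100a8 had 5, 15, 6 and 7 counts after Pdx1 gRNA, 38, 35, 43 and 23 after control gRNA, and 40, 3, 2 and 5 after PBS. PBS library 1 was thus high in S100a8 as well as in Eif3j2. Tcf4 was the only gene of chromosome 18 among the 20 genes most like Eif3j2 and among the 20 most like Gm3650, and that chromosome holds 2.33% of the genes tested.

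For the chromosome 14 pair, more of the alike genes lay on the same chromosome. Of the 20 genes most like Cebpe 9 were on chromosome 14, and of the 20 most like Gm43305 5 were, while that chromosome holds 3.27% of the genes tested. For Cebpe they were Gm26782 (0.889), a long non-coding RNA 3.83 Mb away, Sall2 (0.865), a zinc finger gene 2.38 Mb away, Ppp1r3e (0.859), Rgr (0.859), Lrit1 (0.836), Lrit2 (0.824), Fam124a (0.819), Rpph1 (0.816) and Adra1a (0.809). Gm26782, Sall2 and Fam124a were also among those for Gm43305, with Rpgrip1 (0.836) and Gdf10 (0.813). Zfp39 on chromosome 11 was second for Cebpe (0.875) and first for Gm43305 (0.878).

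Some genes of chromosome 14 shared the low control gRNA library; Lrit1 and Rgr, beyond the 5 most alike, were picked for this after their values were seen. Lrit1, known from the retina, had 2, 50, 5 and 3 counts after Pdx1 gRNA, 43, 56, 2 and 61 after control gRNA, and 196, 258, 248 and 332 after PBS. Rgr, an opsin gene of the retinal pigment epithelium 17.7 Mb from Cebpe, had 0, 4, 0 and 0 counts after Pdx1 gRNA, 7, 11, 0 and 4 after control gRNA, and 29, 40, 23 and 28 after PBS. Control gRNA library 3 was the lowest of its group in both, as in Cebpe, but Pdx1 gRNA library 2 was high for its group in both and was at 0 for Cebpe. Sall2 had 34, 20, 18 and 24 counts after Pdx1 gRNA, 73, 44, 31 and 42 after control gRNA, and 77, 57, 41 and 65 after PBS.

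Some of the other eIF3 subunit genes were higher with virus, whichever gRNA it carried. All 13 listed subunit genes were tested. In the virus groups against PBS 6 rose and none fell, where 17.1% of all genes were called higher and 18.0% lower. The median log2 difference of the 13 was 0.39, beside -0.03 over all genes tested. After control gRNA 6 rose (16.3% of all genes were called higher there), and after Pdx1 gRNA 3 rose (11.7% of all genes). None was called in Pdx1 gRNA against control gRNA (0.0% of all genes), with a median of 0.08. Eif3g rose in the virus groups by 0.8 ± 0.126 on the log2 scale (edgeR adjusted p = 0.000668) and Eif3d by 0.57 ± 0.115 (edgeR adjusted p = 0.00265). Eif3j1, Eif3k, Eif3i and Eif3h rose by 0.39 to 0.66. The core subunits Eif3a (0.18), Eif3b (0.31) and Eif3c (0.37) had positive differences that did not pass. Eif3e, Eif3f, Eif3l and Eif3m differed by 0.14 to 0.41 and did not pass either. Of 20 other initiation and recycling factors, 5 rose and 1 fell in the virus groups, beside 17.1% and 18.0% of all genes, with Eif4e, the cap-binding protein, at 0.69 and the helicase Eif4a1 at 0.56; the one that fell was Eif4b, at -0.49. Over all 14 gene lists described here, 32 of 102 tested genes were called in the virus groups, or 31.4%, beside 35.1% of all genes. The count ran from 21 without PBS library 3 to 36 without PBS library 1, and was 16 without PBS libraries 2 and 3.

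The other C/EBP genes were set beside Cebpe. Of the 5 tested, none was called in Pdx1 gRNA against control gRNA, beside 0.0% of all genes. The differences were 0.43 for Cebpa, -0.12 for Cebpb, -0.14 for Cebpd, 0.37 for Cebpg and 0.38 for Ddit3. In the virus groups Ddit3, the stress-induced member also called CHOP, rose by 3.81 ± 0.228 on the log2 scale, to 205 ± 42.6 CPM in virus libraries, against 14.5 ± 4.26 CPM in PBS (SD; edgeR adjusted p = 1.47e-06). Cebpg rose by 0.54 ± 0.13 (edgeR adjusted p = 0.00695), though not without PBS libraries 2 and 3 (0.36, edgeR adjusted p = 0.11). Cebpd fell by 0.6 ± 0.188 (edgeR adjusted p = 0.0262), and that call was lost without PBS library 2 (-0.35, edgeR adjusted p = 0.14) and kept in 5 of 9 other settings. Cebpa, the main hepatocyte member, averaged 415 ± 188 CPM after Pdx1 gRNA, 308 ± 70.3 with control gRNA and 566 ± 127 with PBS (SD, n = 4 each). Cebpa fell after control gRNA by 0.88 ± 0.305 (edgeR adjusted p = 0.0427), where 15.8% of all genes fell, and its virus difference of -0.66 did not pass (edgeR adjusted p = 0.0612).

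Genes and cells that use C/EBP epsilon were measured beside it. In bulk liver, fewer cells of a type and less RNA per cell cannot be told apart. Of 10 secondary granule genes 7 were tested, and no call was made in Pdx1 gRNA against control gRNA, beside 0.0% of all genes. All 7 differences were negative, with a median of -1.99 beside -0.01 over all genes. In control gRNA against PBS 6 of the 7 were positive (median 0.65), while Cebpe differed by -1.5. The summed level of the 10 genes was 17.5 to 77.9 CPM after Pdx1 gRNA, 52.7 to 208 after control gRNA and 18.0 to 52.2 after PBS. The PBS range thus lay within that of Pdx1 gRNA. Lcn2 and Cybb made up most of this sum, with means of 76.9 and 29.6 CPM after control gRNA, against 1.31 for Ltf and 2.33 for Ngp. The sum therefore says little about the other genes of the list. Chil3, a chitinase-like protein of myeloid cells, averaged 0.151 ± 0.123 CPM after Pdx1 gRNA and 0.833 ± 0.143 after control gRNA (SD, n = 4 each). Cybb, the catalytic subunit of the phagocyte NADPH oxidase, averaged 14.7 ± 6.03 CPM after Pdx1 gRNA and 29.6 ± 9.14 after control gRNA. Lcn2, lipocalin 2, which hepatocytes also make under stress, rose after control gRNA against PBS by 3.17 ± 0.818 on the log2 scale (edgeR adjusted p = 0.0133) and stood 1.18 ± 0.778 above PBS after Pdx1 gRNA (edgeR adjusted p = 0.3). Primary granule genes were at or near the limit of detection, with Mpo, the gene of myeloperoxidase, at 6 summed counts after Pdx1 gRNA, 33 with control gRNA and 15 with PBS, and 1 of 6 was tested.

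Neutrophil markers were summed beside Eif3j2 and Cebpe in each library. The summed level of 12 markers was 3.7 to 6.19 CPM after Pdx1 gRNA, 9.26 to 14.2 after control gRNA, and 14.3, 6.46, 3.59 and 9.8 CPM in PBS libraries 1 to 4. The virus groups were thus separate in this sum as they were in Eif3j2. PBS library 1 had the highest sum and the highest Eif3j2, and PBS library 4 had a sum within the control gRNA range with 13 counts of Eif3j2. For Cebpe, the Pdx1 gRNA libraries were low in both, and control gRNA library 3 had 1 count of Cebpe at a sum of 11.8 CPM. PBS library 3 had 164 counts of Cebpe at a sum of 3.59 CPM. Of the 12 markers 3 were tested, S100a8, S100a9 and Csf3r, and none was called in any comparison. Each of the 3 was lower in every Pdx1 gRNA library than in every control gRNA library, as were 3.17% of all genes tested. Ly6g, the defining marker, had 0 summed counts after Pdx1 gRNA, 2 with control gRNA and 1 with PBS. The part of these cells in the differences of Eif3j2 and Cebpe was not tested.

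**Figure D5:**
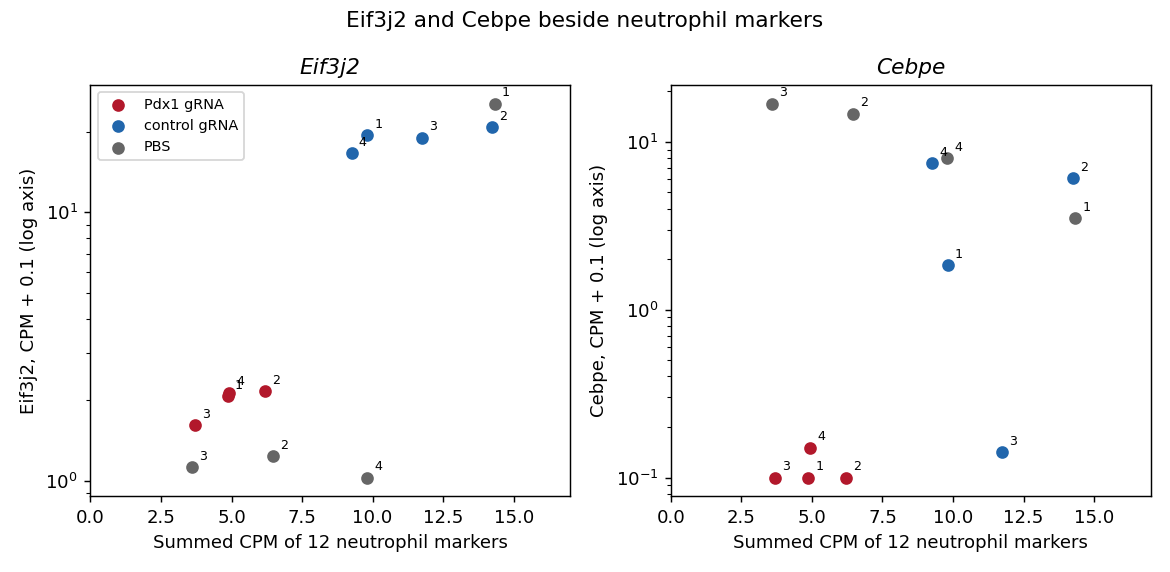
CPM plus 0.1 (log axis) of Eif3j2 (left) and Cebpe (right) against the summed CPM of 12 neutrophil markers, 1 point per library with its replicate number, coloured by Pdx1 gRNA, control gRNA or PBS. The 5 libraries with high Eif3j2 have sums between 9.26 and 14.3 CPM, while the highest Cebpe, in PBS library 3, stands at a sum of 3.59 CPM.

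Among the other cell types, all 10 macrophage markers had negative differences in Pdx1 gRNA against control gRNA (median -0.65). None was called, beside 0.0% of all genes in that contrast. Their summed levels were 235 to 685 CPM after Pdx1 gRNA, 290 to 954 after control gRNA and 188 to 813 after PBS. All 9 tested T and NK cell markers were negative as well (median -0.81, none called), with sums of 3.55 to 13.2 CPM after Pdx1 gRNA, 12.4 to 21.1 after control gRNA and 6.15 to 11.2 after PBS. Of 9 eosinophil genes 2 were tested, Ear2 and Siglecf. Both rose after control gRNA against PBS, where 16.3% of all genes were called higher. So did 2 of the 10 macrophage and 2 of the 9 T and NK cell markers. Ear2 rose by 1.51 ± 0.471 on the log2 scale (edgeR adjusted p = 0.0278) and Siglecf by 2.52 ± 0.821 (edgeR adjusted p = 0.0331). Siglecf was near the limit of detection, at 0.796 ± 0.599 CPM after control gRNA and 0.128 ± 0.0878 with PBS, and these groups overlapped. Epx and Prg2 had 1 and 6 summed counts after Pdx1 gRNA, 1 and 11 after control gRNA, and 0 and 4 after PBS. Of 8 tested granulocyte transcription factors 1 rose and 1 fell in the virus groups, beside 17.1% and 18.0% of all genes. Klf4 rose by 1.52 ± 0.47 (edgeR adjusted p = 0.0245) and Cebpd fell by 0.6 ± 0.188 (edgeR adjusted p = 0.0262). After control gRNA 2 rose and 1 fell, beside 16.3% and 15.8% of all genes. Spi1, the gene of PU.1, rose there by 1.23 ± 0.341 (edgeR adjusted p = 0.0164) and Klf4 by 1.44 ± 0.515 (edgeR adjusted p = 0.0473). Cebpa fell there by 0.88 ± 0.305 (edgeR adjusted p = 0.0427). Gfi1, which acts with C/EBP epsilon in neutrophil precursors, had 9 summed counts after Pdx1 gRNA, 29 with control gRNA and 7 with PBS and was not tested.

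B cell markers (6 tested) and cholangiocyte markers (5 tested) had no call in Pdx1 gRNA against control gRNA, beside 0.0% of all genes. Their medians were -0.28 and -0.83. After control gRNA against PBS 3 of the 5 cholangiocyte markers and none of the 6 B cell markers rose, beside 16.3% of all genes. Hepatocyte markers summed to 50220 to 105600 CPM after Pdx1 gRNA, 52140 to 71500 after control gRNA and 89880 to 125500 after PBS, and 8 of 10 fell in the virus groups, beside 18.0% of all genes. Erythroid markers summed to 79.8 to 179 CPM after Pdx1 gRNA, 54.7 to 211 after control gRNA and 323 to 449 after PBS, and 4 of 5 tested fell in the virus groups, beside the same 18.0% of all genes. Cebpe was highest in PBS, the group with the highest median sums of both hepatocyte and erythroid markers. Within PBS, library 1 had the highest erythroid sum and the lowest Cebpe, while library 3 had the next highest sum and the highest Cebpe. In PBS libraries 1 to 4 the erythroid sums were 448.5, 322.8, 362 and 346.3 CPM, and Cebpe stood at 3.42, 14.6, 16.8 and 7.94 CPM. The part of those cells in the difference of Cebpe was not tested.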

How the data were processed

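The values are fragment counts per gene, which the authors deposited as 1 file per library without normalization: featureCounts 1.4.6-p4 on paired ends, both ends mapped, exons summed by gene, GENCODE M13, without strand or multi-mapping reads, per the file headers. Per the submitters' processing notes, Trimmomatic 0.32, STAR 2.4.1a, DESeq2 1.22.0 and R 3.5.1 were used with GRCm38 (mm10). Symbols and transcripts came from GENCODE M21 (50376 of 50600 gene IDs matched).

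Genes were filtered by filterByExpr (minimum count 10) and scaled by TMM, and all 12 libraries were fitted together with edgeR 4.0.16 in R 4.3.3 (robust quasi-likelihood test, two-sided, Benjamini-Hochberg over 15219 genes; called under 0.05). Alternatives used DESeq2 1.42.0 and limma 3.58.1 (voom). The code was tested on simulated data. No library copied another (chi-square per degree of freedom at least 19.3). The 4 genes get no test, since each contrast uses libraries by which they were chosen. Likeness used log2 CPM. Named genes were the 4 genes and Pdx1, called neighbours and the 2 of each pair with the smallest p in a comparison, up to 4 genes of each of 14 lists by smallest p, all eIF3 and C/EBP genes, and the 5 most alike genes. Spg11, Ddx3y, Xist, untested defining markers and further alike genes on chromosome 14 or 18 were added after their values were seen. Genes and lists were chosen with earlier results of these data known. Because reads were counted without strand, antisense partners cannot be told apart.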

Additional observations from a re-analysis of the deposited data

Results flagged for a closer look

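Of 18 sets of 4 libraries (the CPM of the 4 genes and 2 ratios, in each group) 6 held a library far from the other 3 by a Dixon test. In 4 of the 6 the other 3 libraries are at 0, so that any count stands apart by construction, and the rate of about 1 in 20 that chance gives does not apply to them. PBS library 1 stood apart in Eif3j2, at 25.3 CPM against 0.93 to 1.14 in the other PBS libraries. It stood apart likewise in Eif3j2 as a share of Eif3j1, at 29.35% against 1.52 to 1.66%, and in Gm3650, at 4.316 CPM against 0. Pdx1 gRNA library 1 stood apart in Gm3650, at 0.1553 CPM against 0 in the other 3, which is a matter of 3 counts. Pdx1 gRNA library 4 stood apart in Cebpe, at 0.0508 CPM against 0, and in Cebpe as a share of Gm43305, at 1.449% against 0%, both on 1 count.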

How the results depend on the processing

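Values below are set against those of the fit to all 12 libraries. The rise of Eif3j1 in the virus groups was called in each of 9 other settings (0.56 to 0.73, adjusted p at most 0.0441) and without each library in turn (0.6 to 0.77). The Cebpe difference, a description that rests on the libraries by which the gene was chosen, ran from -5.4 to -4.33 over those settings. Leaving out PBS libraries 2 and 3 lowered the genes called to 2555 in the virus groups against PBS, 1277 after Pdx1 gRNA and 2258 after control gRNA (5339, 3370 and 4887 before). It lowered the neighbours called to 2, 1 and 1, and the list genes called to 16, 9 and 9. It also changed the difference in mean, virus minus PBS, to -2.75 CPM for Eif3j2, -1.059 CPM for Gm3650 and -3.777 CPM for Cebpe. The fitted log2 difference of control gRNA minus PBS became -0.03 for Gm3650. All these comparisons hold 2 PBS libraries in place of 4. With limma-voom the virus difference was 1.15 for Eif3j2 and 1.23 for Gm3650, and control gRNA minus PBS was -0.26 for Gm43305; the cause was not tested.

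Fitting only the libraries compared gave 2017 genes after Pdx1 gRNA against PBS and 1 in Pdx1 gRNA against control gRNA, where DESeq2 gave 14. In that setting Gm3650 after Pdx1 gRNA and Cebpe in Pdx1 gRNA against control gRNA had no value, since the filter removed them. In windows of 1 Mb, 52 neighbours were tested in place of 30. Of these, 21 were called in the virus groups, 14 after Pdx1 gRNA and 21 after control gRNA. The shares called were 40.4, 25.5 and 40.4% of 47 around the chromosome 14 pair and 40.0% of 5 in each around the other. They stand beside 35.1, 22.1 and 32.1% of all genes. Replicate numbers did not pair the libraries: over 12 same-numbered pairs the correlation of deviations was -0.42 to 0.21, and 2 of 12 libraries correlated best with their own number. Under the replicate block, 21 list genes were called in the virus groups in place of 32, the Eif3j2 virus difference was 0.87, and that of Gm43305 was -2.01.

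Leaving out 1 library at a time, genes called ranged from 4007 to 6960 in the virus groups against PBS, 2132 (without Pdx1 gRNA library 4) to 5421 (without PBS library 1) after Pdx1 gRNA, 3445 to 6875 after control gRNA, and 0 to 1 in Pdx1 gRNA against control gRNA. Neighbours called ranged from 7 to 12, 5 to 11, 7 to 14 and 0 to 0 in the same order. List genes called ranged from 21 to 36, 10 to 24, 16 to 47 and 0 to 0 (16 without control gRNA library 3, against 37). Virus minus PBS ranged from 1.21 to 9.333 CPM for Eif3j2, -0.3391 to 1.1 for Gm3650, -11.22 to -6.763 for Cebpe and -49.52 to 3.983 for Gm43305. On the log2 scale it ranged from -0.64 to 2.53 for Eif3j2 and -3.19 to 5.52 for Gm3650. Pdx1 gRNA minus PBS ranged from -2.29 to 0.88 for Eif3j2 and -7.29 to 2.84 for Gm3650, and control gRNA minus PBS from -0.26 to 1.03 for Gm43305. The highest Eif3j2 and Gm3650 values came without PBS library 1. Depth limits Gm3650 and Cebpe, whose low libraries held 0 to 3 counts.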
